A study of Rattus norvegicus with 28 samples.

Results

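Genes of ER translocation and early secretory transport were compared between regions of low and high wall shear stress (WSS) in the rat aorta. The genes were taken by symbol: the Sec61 translocation channel, the signal recognition particle (SRP), signal peptidase, oligosaccharyltransferase, the COPII and COPI coats, Arf GTPases, cargo receptors, and the Rab GTPases, golgins and tethers between the ER and the Golgi. The rule found 85 genes on 95 of the 29214 probe sets of the array, and 83 of them had a mean level of at least 4. Tmed6 and Tmed11, 2 members of the p24 cargo receptor family, had mean levels of 2.84 and 2.14 and were not tested. Probe sets that name Sec61g, Tmed7, Arfgap1, Golga4 or Srprb carry several symbols and are not members. The arrays measured mRNA of the entire wall of untreated male Wistar rats, whose age is not given in the sources used here. Flow simulations in other rats guided the cutting of a high WSS and a low WSS piece of each aorta, and pieces from 5 animals were pooled. The low WSS piece came from the distal lesser curvature of the arch and the high WSS piece from its greater curvature. WSS was not estimated in the animals on the arrays, and WSS and site in the aorta cannot be told apart. There were 14 high WSS pools and 14 low WSS pools from 70 animals, with 1 array per pool. By the methods, both pools of a pair hold the same animals. Pools were paired here by the replicate number in the sample titles, which do not say that equal numbers share animals.

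Proteins bound for the cell surface, the matrix or the secretory organelles enter the ER while they are being made. The SRP delivers the ribosome to its receptor and the Sec61 channel, signal peptidase removes the leader peptide, and oligosaccharyltransferase attaches the first sugars. COPII vesicles then carry cargo from the ER to the Golgi, COPI vesicles return escaped ER proteins and receptors, and Rab and Arf GTPases direct both steps. In the arterial wall, smooth muscle cells and fibroblasts send collagen and other matrix proteins through this route. Its genes are among the known targets of Xbp1, Atf6 and the Creb3-like factors, which raise ER capacity when secretion rises.

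The sequence TGACGTGG, the unfolded protein response element bound by XBP1 and ATF6 in human cells, was the searched motif that member promoters held most often. All motifs were searched on both strands. Promoters of 71 of the 85 genes were in the RefSeq table of the GRCr8 build, each running from 250 bases before to 50 bases after the start site. The element was present in 8 of these 71 promoters (11.3%), in 87 of 9685 promoters of all tested genes (0.898%) and in 199 of 33469 promoters of the whole table (0.595%). Of the matches, 6 lie before the start site and are printed 5′ to 3′ in the direction of the gene, with the element, or CCACGTCA where it is on the other strand, in capitals.
Arf4 (chr16:1903397-1903435, plus strand, element at -9 to -2): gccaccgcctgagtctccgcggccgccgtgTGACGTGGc
Golga1 (chr3:43222435-43222502, minus strand, element at -153 to -146): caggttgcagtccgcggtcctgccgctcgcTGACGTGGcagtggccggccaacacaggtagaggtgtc
Kdelr3 (chr7:112959501-112959568, plus strand, element at -101 to -94): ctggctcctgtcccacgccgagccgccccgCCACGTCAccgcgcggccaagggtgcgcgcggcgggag
Arf1 (chr10:44513995-44514054, minus strand, element at -30 to -23): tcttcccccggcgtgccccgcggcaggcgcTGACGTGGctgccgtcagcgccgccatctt
Sec23a (chr6:82440958-82441025, minus strand, element at -91 to -84): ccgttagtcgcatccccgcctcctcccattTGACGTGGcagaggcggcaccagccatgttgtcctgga
Srp19 (chr18:26205703-26205770, plus strand, element at -155 to -148): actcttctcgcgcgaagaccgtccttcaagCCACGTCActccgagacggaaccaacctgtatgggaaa
Copb1 held the element at -6 to 2 and Copa at 31 to 38. The 8 genes did not move together: Arf4, Copb1, Golga1 and Copa were higher in low WSS, Srp19 was lower, and Kdelr3, Arf1 and Sec23a did not pass the test. Over all 87 tested genes with the element, 16 were higher and 22 lower, where 19.7% and 22.0% of all genes tested were. No member promoter held the ER stress element (CCAAT and CCACG with 9 bases between them, in 0.0657% of all promoters), its shorter form (ATTGG and CCACG with 1 base between them, 0.0508%) or the lysosomal element made of GTCAC and GTGAC side by side (0.233%), and the cyclic AMP element TGACGTCA was in the promoters of Arfgap2 and Cope (2.82% of members, 1.83% of all promoters). A match is a string of letters in this window and says nothing on binding.

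Levels are on the log2 scale, and each difference is low minus high WSS. A gene is called higher or lower in low WSS where its adjusted p was under 0.05 in limma, with the pair as a block and the Benjamini-Hochberg adjustment over 13383 probe sets. Of the 83 members measured, 38 passed (45.8%, against 41.7% of the 11750 genes tested on the array). The members leaned to one side, since 30 were higher (36.1%, against 19.7% of all genes) and 8 were lower (9.64%, against 22.0%). The median difference was 0.064 over the members and -0.005 over all genes. Of the members, 81 had a mean level of at least 6. In a separate fit limited to that level, 36 of them were higher (44.4%) and 8 lower (9.88%). Among all 8132 genes of that fit, 25.4% were higher and 23.9% lower. The split of the calls moved with the scaling: a further quantile normalization gave 27 higher and 13 lower members, or 67.5% of calls on the higher side in place of 78.9%, and centring each array on its median gave 40 and 5, or 88.9%. Over all genes, 20.4% were higher and 22.0% lower after the former, and 26.9% and 16.7% after the latter, which moved the median of all genes to 0.0326. With the smooth muscle genes Tagln and Cnn1 as covariates, 19 members were higher and 4 lower (22.9% and 4.82%, against 11.0% and 14.5% of all genes), and the median difference of the members was 0.0512. That fit ended the calls of Arfgap2, Golga1, Gorasp1, Lman1, Rab2a, Rab2b, Rpn2, Sec13, Srp19 and Ssr3. It also ended those of Cope, Arf2, Rpn1, Sec11a, Surf4 and Sec24b, which at least 1 other alternative ended too.

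Most differences were small. The median size among the 38 members that passed was 0.208, against 0.222 among all genes that passed, and only Rab1b reached 0.5. The Bonferroni threshold (p of 3.74e-06) was passed by 11 members (13.3%, against 6.91% of all genes), 10 of them higher (12.0%, against 3.01% of all genes) and 1 lower (1.2%, against 3.9%). The 10 were Rab1b, Srpra, Arf4, Tmed10, Stt3a, Sec61a1, Copg2, Golga7, Sec22b and Spcs2, and the lower gene was Arf6. Leaving out 1 pair gave 5 to 10 in place of 11, and 7 or fewer for any pair but 1 and 6. The low and high WSS pools of 4 members did not overlap at all (4.82%, against 1.13% of all genes), and these were Rab1b, Srpra, Arf4 and Tmed10. A difference in the same direction in all 14 pairs was seen for 13 higher members (15.7%, against 4.38%) and 2 lower members (2.41%, against 4.83%).

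**Figure D1:**
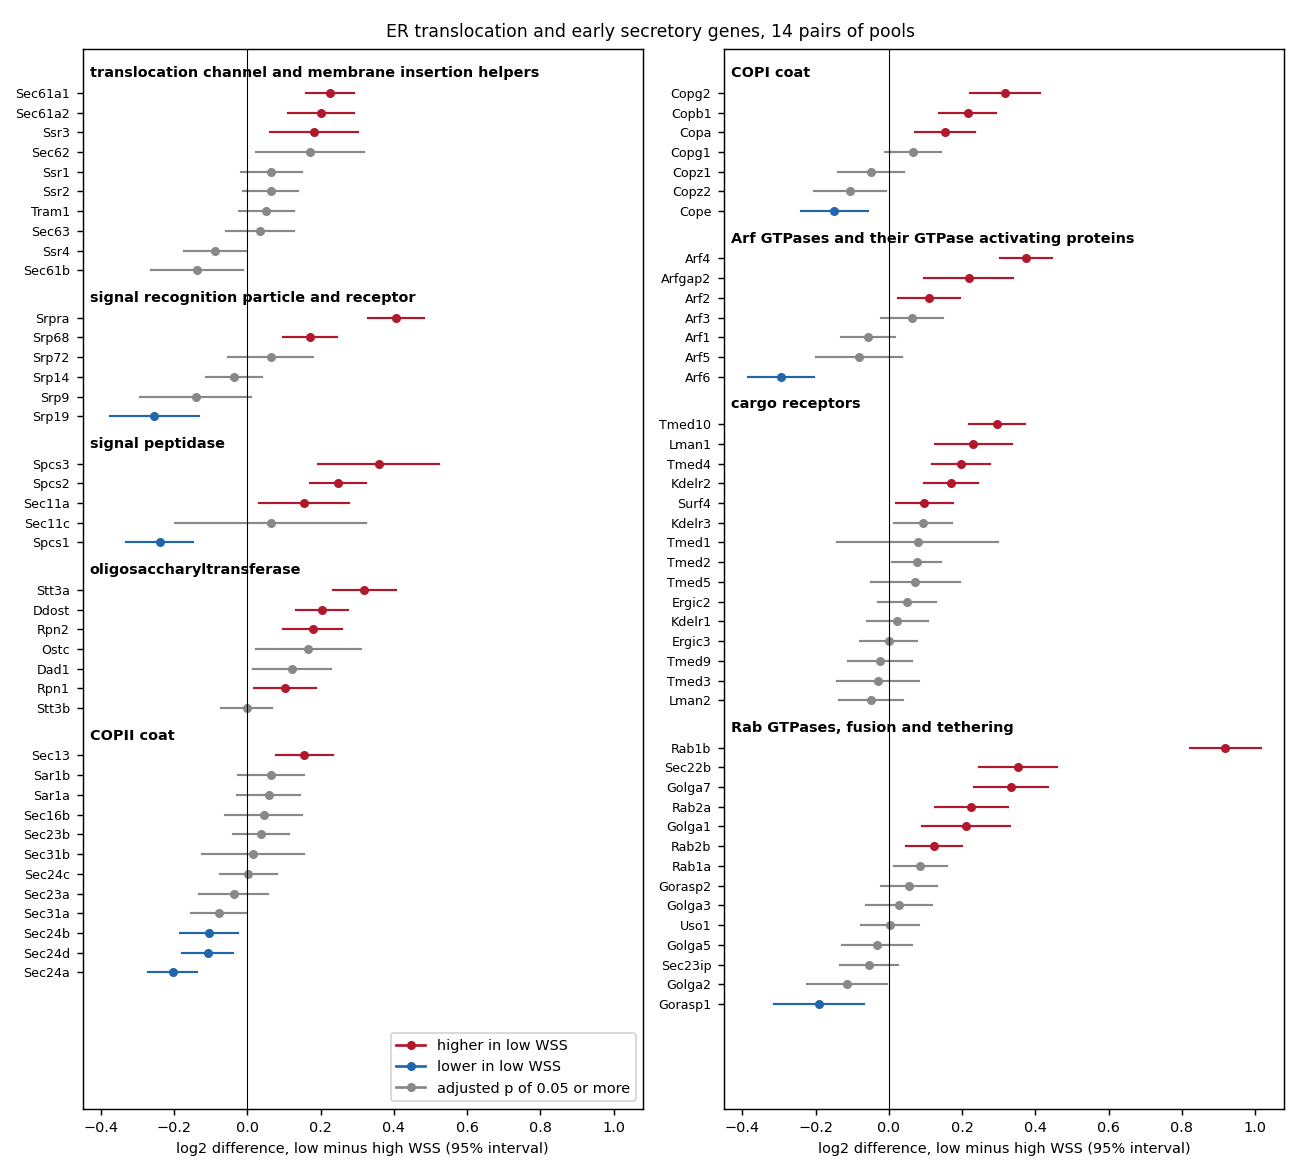
Log2 difference, low minus high WSS, of the 83 measured members (points) with 95% intervals from limma over 14 pairs, ordered within each role. Red genes were higher, blue genes lower and grey genes did not pass an adjusted p of 0.05, and Rab1b at 0.92 lies apart from the other members, the largest of which is 0.41 in size.

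The list of smooth muscle genes had mean levels of 10.3 to 11.07 in high and 10.36 to 10.9 in low WSS pools, and 1 of its 9 measured genes was higher and 2 were lower. Tagln differed by 0.055 (SE 0.037, adjusted p = 0.252) and Cnn1 by -0.004 (SE 0.037, adjusted p = 0.943). The 9 endothelial genes measured had mean levels of 6.498 to 7.383 and 6.59 to 7.343 and 0 passed the test in limma, 0 at an unadjusted p under 0.05 and 0 in the methods' paired t-test. In pairs 4 to 14 alone, however, 4 of the endothelial genes were lower (median -0.21), and with the fat cell mean as a covariate 3 were lower (median -0.219). The lower genes numbered 1, 2 and 1 without pair 1, 3 and 9, respectively. Of the 10 fibroblast genes, 4 were higher and 3 lower (mean levels of 10.37 to 10.84 and 10.21 to 10.81), and of the 10 myeloid genes 4 were higher and 1 lower (5.74 to 6.46 and 5.91 to 6.56). Genes of plasma and B cells, which secrete heavily, lay near the lower limit at 4.10 to 4.62 and 4.12 to 4.76. The fat cell list ran from 5.38 to 9.52 (median 5.87) in high and from 5.58 to 9.64 (median 6.84) in low WSS pools. The differences of its 9 genes ran from 0.18 to 1.23 (median 0.83), and 2 passed as higher (0 in the paired t-test). With the mean of this list as a covariate, 29 members were higher and 7 lower. In such bulk tissue, more cells of a secreting type and more RNA per cell cannot be told apart.

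The counts by role that follow stand beside 19.7% higher and 22.0% lower among all genes tested, and each role holds only 5 to 15 measured genes. At the entry to the ER, the SRP and its receptor had 2 of 6 genes higher in low WSS and 1 lower (median 0.0135). Both pore subunits of the channel were higher. Srpra encodes the alpha subunit of the SRP receptor, which docks the ribosome at the ER membrane. Its level was 10.17 to 10.56 (median 10.36) over the high WSS pools and 10.66 to 10.87 (median 10.80) over the low WSS pools. Every low WSS pool was above every high WSS pool, a difference of 0.41 (SE 0.036, adjusted p = 2.31e-07) or 1.32-fold. Sec61a1, the main pore subunit of the channel, ran from 9.94 to 10.39 (median 10.17) in high and from 10.21 to 10.65 (median 10.39) in low WSS. The groups overlapped, but the low WSS pool was the higher one in all 14 pairs (difference 0.23, SE 0.032, adjusted p = 2.3e-05). Its paralog Sec61a2, another form of the pore subunit, was higher by 0.20 (SE 0.042, adjusted p = 0.00102), and the differences of both genes lay within 0.025 of each other (95% interval -0.0788 to 0.128, adjusted p = 0.667, exact sign-flip permutation test over 14 pairs).

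Among the 10 measured genes of the channel and its helpers, 3 were higher and 0 lower (0 in the paired t-test). Centring the arrays on their medians gave 6 and 0, a further quantile normalization 3 and 1, and Tagln and Cnn1 as covariates 2 and 0. In the main fit, 2 genes had an unadjusted p under 0.05 on the lower side. The third higher gene was Ssr3, a subunit of the translocon-associated protein complex, at 0.18. The other subunits of that complex had values of 0.07 (Ssr1), 0.06 (Ssr2) and -0.09 (Ssr4), and the channel's small beta subunit Sec61b had a value of -0.14, none past the threshold. The SRP itself was divided. Srp68, which forms a dimer with Srp72 in the particle, was higher by 0.17 in all 14 pairs (adjusted p = 0.000774). Srp19, which binds the SRP RNA and allows the particle to assemble, was lower. The level of Srp19 ran from 6.48 to 6.83 (median 6.63) in high and from 6.08 to 6.85 (median 6.41) in low WSS. In 11 of the 14 low WSS pools it lay below every high WSS pool, and 1 low WSS pool lay above them all (difference -0.25, SE 0.058, adjusted p = 0.00189). Srp72 had a value of 0.064 on its brightest probe set (adjusted p = 0.371), while its other probe sets, at 0.13 each, passed the test (adjusted p = 0.0204 and 0.0218).

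The signal peptidase complex showed the same split within 1 enzyme. Spcs2, a regulatory subunit, ran from 9.33 to 9.67 (median 9.50) in high and from 9.52 to 9.84 (median 9.75) in low WSS. It was higher in low WSS in all 14 pairs, and 12 low WSS pools exceeded every high WSS pool (difference 0.25, SE 0.036, adjusted p = 3.73e-05). Spcs1, another small subunit, went the other way. The level of Spcs1 ran from 11.45 to 12.03 (median 11.76) in high and from 11.37 to 11.64 (median 11.53) in low WSS, and was lower in low WSS in 13 of 14 pairs (difference -0.24, SE 0.043, adjusted p = 0.000274). Spcs3, which the complex needs for cleavage, was higher by 0.36 (SE 0.079, adjusted p = 0.00144), but its pairs varied widely, from -0.37 to 0.88. The catalytic subunit Sec11a had a difference of 0.15 near the threshold (adjusted p = 0.0421), and its paralog Sec11c, at 0.064, did not pass.

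Oligosaccharyltransferase, which transfers the preformed glycan to asparagines of the entering chain, had 4 of 7 genes higher and 0 lower (also 0 in the paired t-test, and 0 in limma at an unadjusted p under 0.05), with a median of 0.17. The enzyme exists in 2 forms, of which that with Stt3a works beside the channel and that with Stt3b acts on sites skipped during entry. The level of Stt3a ran from 10.25 to 10.68 (median 10.55) in high and from 10.65 to 11.05 (median 10.86) in low WSS. The low WSS pool was higher in all 14 pairs, by 0.32 (SE 0.041, adjusted p = 9.21e-06) or 1.25-fold. Stt3b ran from 8.58 to 8.82 (median 8.70) in high and from 8.53 to 8.90 (median 8.69) in low WSS, and the groups covered the same range. Its difference was -0.002 (95% interval -0.07 to 0.07), and a dim probe set of the same gene, at a mean level of 5.30, was lower by 0.32 (adjusted p = 0.000277). The difference of Stt3a exceeded that of Stt3b in 14 of 14 pairs, by 0.322 (SE 0.0353, exact p = 0.000122, the smallest the test can give, adjusted p = 0.000565). The shared subunits Ddost (0.20, higher in all 14 pairs), Rpn2 (0.18) and Rpn1 (0.10, adjusted p = 0.0465) were higher too, and Ostc and Dad1 had values of 0.17 and 0.12 with adjusted p of 0.0581 and 0.062.

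**Figure D2:**
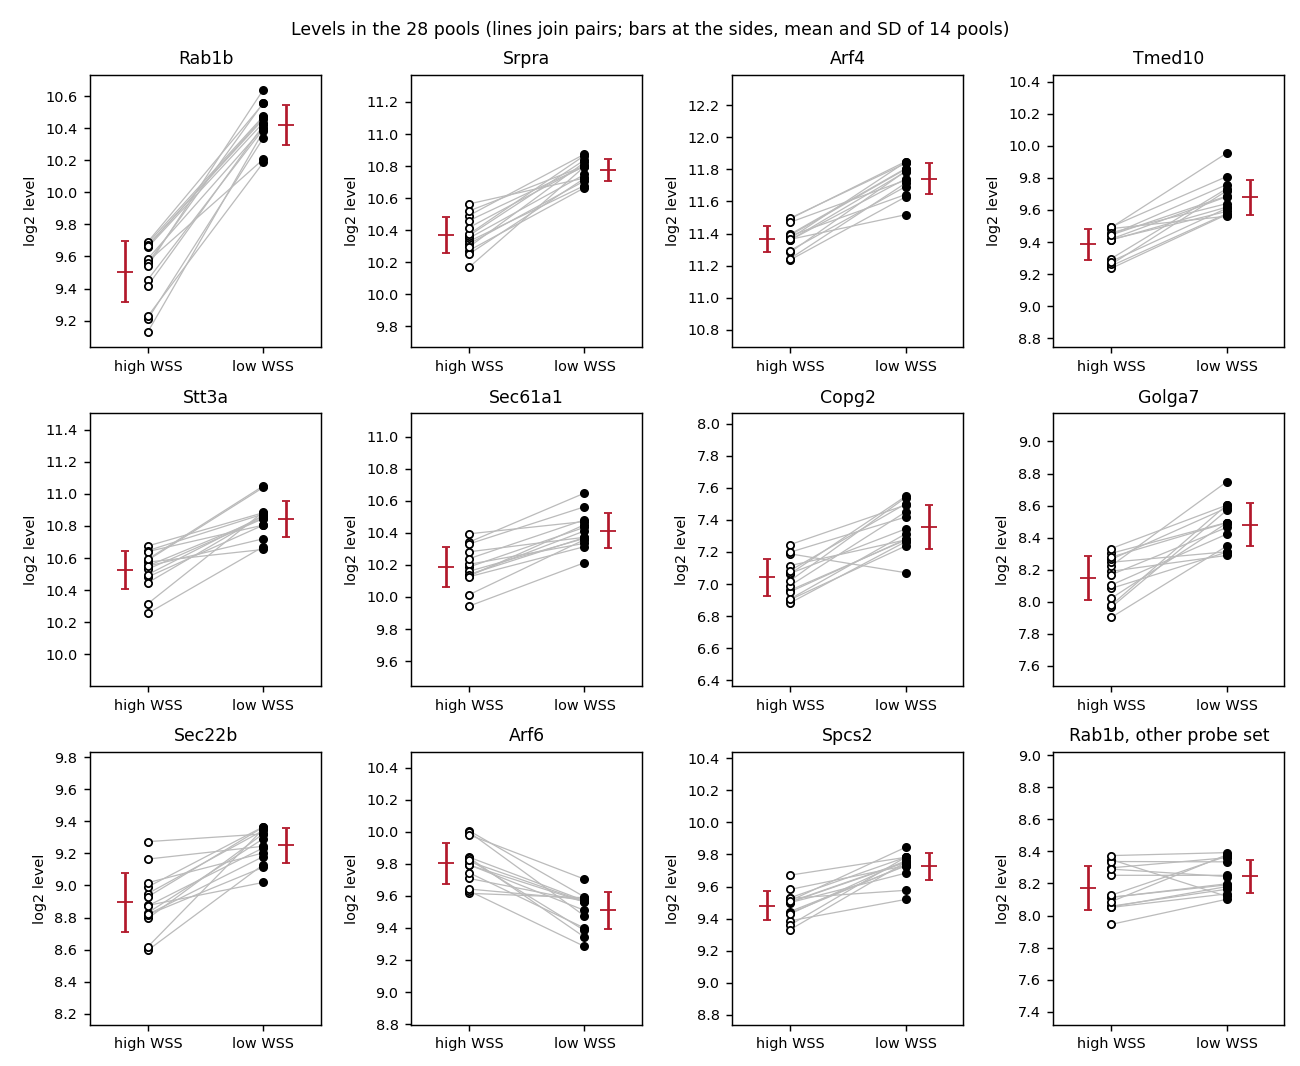
Log2 levels in the 14 high WSS pools (open circles) and the 14 low WSS pools (filled circles) of the 11 members past the Bonferroni threshold and of the other Rab1b probe set, with lines joining pairs and red bars for the mean and SD at the sides. The panels span the same width on the log2 scale, and the groups are apart in Rab1b, Srpra, Arf4 and Tmed10.

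The COPII coat, which buds vesicles from the ER, had 1 of 12 genes higher and 3 lower, and a median of 0.009. The higher gene was Sec13, an outer coat protein that also belongs to the nuclear pore, at 0.16 in all 14 pairs (adjusted p = 0.00249). The lower genes were all forms of Sec24, the subunit that reads export signals of the cargo. The level of Sec24a ran from 9.50 to 9.70 (median 9.59) in high and from 9.22 to 9.54 (median 9.37) in low WSS. It was lower in low WSS in all 14 pairs, and 11 low WSS pools lay below every high WSS pool (difference -0.20, SE 0.032, adjusted p = 7e-05). Sec24d ran from 10.10 to 10.40 (median 10.19) and from 9.99 to 10.25 (median 10.11), a difference of -0.11 (SE 0.033, adjusted p = 0.0137). Sec24b ran from 9.06 to 9.49 (median 9.29) and from 9.04 to 9.29 (median 9.25), a difference of -0.10 (SE 0.037, adjusted p = 0.0307). Sec24d and Sec24b no longer passed when the arrays were centred on their medians, and Sec24b also failed in 7 of the 14 fits that left out 1 pair. The fourth form, Sec24c, ran from 8.91 to 9.27 (median 9.17) in high and from 9.02 to 9.30 (median 9.15) in low WSS, with a difference of 0.003.

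Differences among the Sec24 forms were tested directly. Sec24a lay below Sec24c in its difference by 0.207 (SE 0.0385, in 13 of 14 pairs, adjusted p = 0.001 in the exact sign-flip permutation test), below Sec24b by 0.0992 (adjusted p = 0.0125) and below Sec24d by 0.0953 (adjusted p = 0.0194). Sec24b and Sec24d differed from each other by 0.00392 (95% interval -0.083 to 0.0909, adjusted p = 0.924). Sec23a, the inner coat partner of Sec24, ran from 9.79 to 10.16 (median 10.05) and from 9.65 to 10.15 (median 10.03), and Sec23b from 7.56 to 8.01 (median 7.72) and from 7.55 to 7.99 (median 7.75). Neither passed the test against 0, at -0.037 and 0.037, while the difference between them of 0.0746 did (adjusted p = 0.00753). The GTPases Sar1a and Sar1b, which start the coat, had values of 0.058 and 0.064 that did not pass and differed by 0.0058 (95% interval -0.105 to 0.0931).

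In the COPI coat, 3 of 7 genes were higher and 1 was lower, or 3 and 2 after a further quantile normalization. Copg2, a gamma subunit, ran from 6.88 to 7.25 (median 7.04) in high and from 7.07 to 7.55 (median 7.33) in low WSS, and 12 low WSS pools exceeded every high WSS pool. The difference of Copg2 was 0.32 (SE 0.045, adjusted p = 2.91e-05). Its paralog Copg1, with levels of 9.88 to 10.22 (median 10.09) and 10.02 to 10.24 (median 10.18), had a difference of 0.065 that did not pass. The difference of Copg2 exceeded that of Copg1 by 0.251 (SE 0.0598, in 13 of 14 pairs, adjusted p = 0.00486 in the exact permutation test). Copb1 was higher by 0.21 and Copa by 0.15. Cope, the epsilon subunit, was lower by 0.15 (SE 0.044, adjusted p = 0.0105), with levels of 7.96 to 8.49 (median 8.27) in high and 7.95 to 8.44 (median 8.13) in low WSS, but it did not pass when the arrays were centred on their medians.

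The Arf GTPases, which recruit COPI and other coats, moved in opposite directions. Arf4, a Golgi form, ran from 11.23 to 11.50 (median 11.37) in high and from 11.52 to 11.85 (median 11.76) in low WSS. No pools overlapped, and the difference was 0.38 (SE 0.034, adjusted p = 2.31e-07) or 1.30-fold. Arf6, which acts at the plasma membrane and endosomes rather than in the early secretory route, ran from 9.62 to 10.01 (median 9.80) in high and from 9.28 to 9.70 (median 9.56) in low WSS. It was lower in low WSS in all 14 pairs, and 13 low WSS pools lay below every high WSS pool (difference -0.29, SE 0.043, adjusted p = 3.5e-05). The difference of Arf4 exceeded that of Arf6 by 0.669 (SE 0.0482, 14 of 14 pairs, adjusted p = 0.000565 in the exact permutation test).

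Of the other Arf genes, Arf1 ran from 11.41 to 11.78 (median 11.61) and from 11.43 to 11.68 (median 11.53), a difference of -0.057 that did not pass. The difference of Arf4 was above that of Arf1 by 0.432 in 14 of 14 pairs (SE 0.0391, adjusted p = 0.000565 in the exact permutation test). Arf2 ran from 6.44 to 6.95 (median 6.71) and from 6.51 to 7.05 (median 6.80), Arf3 from 9.91 to 10.34 (median 10.13) and from 10.03 to 10.42 (median 10.21), and Arf5 from 7.68 to 8.33 (median 7.84) and from 7.49 to 8.10 (median 7.79). Arf2 passed the test narrowly (0.11, adjusted p = 0.0356) and lost it in 7 of the 14 fits that left out 1 pair. Arf3 (0.063) and Arf5 (-0.082) did not pass. Arfgap2, a GTPase activating protein of the COPI coat, was higher by 0.22.

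**Figure D3:**
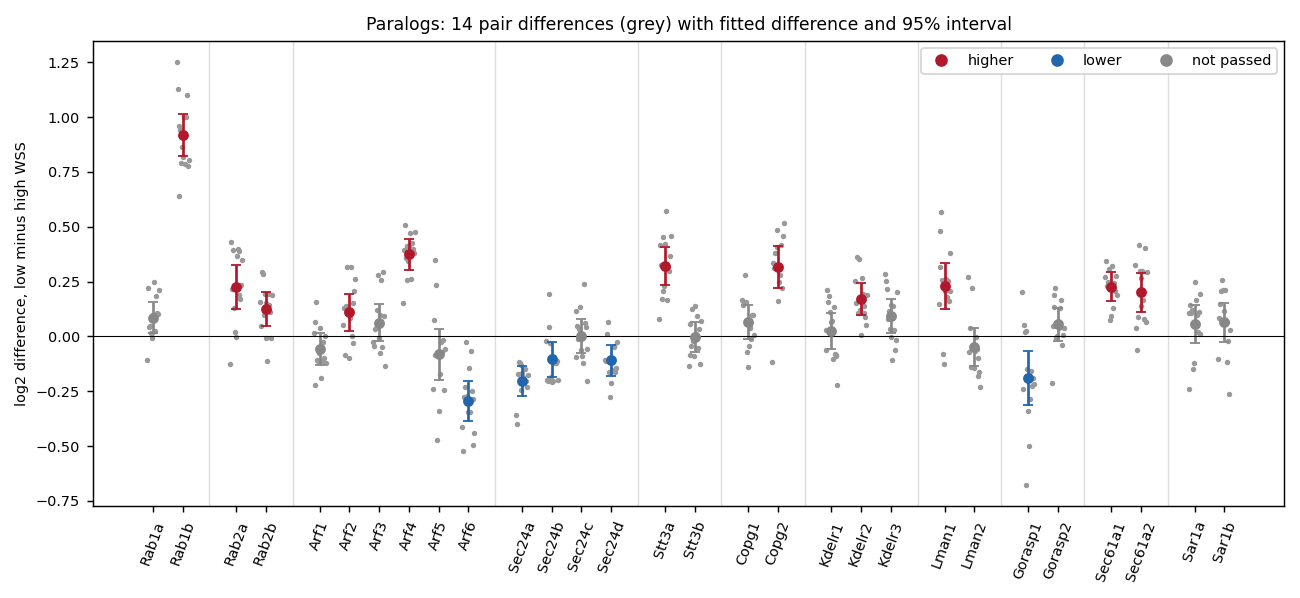
Log2 difference, low minus high WSS, in each of the 14 pairs (grey points) for families of related members, with the fitted difference and its 95% interval in red (higher), blue (lower) or grey (not passed). Rab1b lies apart from Rab1a, Arf4 from Arf6, Stt3a from Stt3b and Sec24a from Sec24c, whereas Sec61a1 and Sec61a2 lie side by side.

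Cargo receptors, which sort proteins between the ER and the Golgi, had 5 of 15 measured genes higher and 0 lower (also 0 in the paired t-test, and 0 in limma at an unadjusted p under 0.05). Tmed10, a p24 protein of COPI and COPII vesicles, ran from 9.24 to 9.49 (median 9.42) in high and from 9.56 to 9.95 (median 9.66) in low WSS. Its pools did not overlap, the difference was 0.29 (SE 0.036, adjusted p = 6.72e-06), and another probe set of Tmed10 was higher by 0.21 (adjusted p = 0.00202). The other p24 genes were mixed in size. Tmed4 was higher by 0.20, while Tmed2 (0.076), Tmed5 (0.072), Tmed1 (0.079), Tmed9 (-0.025) and Tmed3 (-0.029) did not pass. Lman1, the lectin that carries coagulation factors out of the ER, ran from 8.90 to 9.43 (median 9.00) in high and from 9.05 to 9.46 (median 9.27) in low WSS and was higher by 0.23 (SE 0.050, adjusted p = 0.00126). Lman2, a related lectin with levels of 10.22 to 10.61 (median 10.44) and 10.22 to 10.56 (median 10.36), had a value of -0.049, and the genes differed from each other by 0.279 (SE 0.0633, 12 of 14 pairs, adjusted p = 0.00414 in the exact permutation test).

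The KDEL receptors bring back chaperones that leave the ER. Kdelr2 ran from 11.05 to 11.51 (median 11.38) in high and from 11.30 to 11.68 (median 11.51) in low WSS and was higher by 0.17 (SE 0.035, adjusted p = 0.000896), in all 14 pairs. Kdelr1 ran from 10.27 to 10.61 (median 10.49) and from 10.17 to 10.72 (median 10.45), and Kdelr3 from 8.98 to 9.58 (median 9.42) and from 9.27 to 9.70 (median 9.47). Their values of 0.023 and 0.093 did not pass, and the difference of Kdelr2 exceeded that of Kdelr1 by 0.147 (adjusted p = 0.00581) and that of Kdelr3 by 0.0764 (adjusted p = 0.0332). Surf4, a receptor for soluble cargo, was at 0.10 near the threshold (adjusted p = 0.0449).

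Rab1b, a GTPase that drives transport from the ER to the Golgi, had the largest difference of all members and was 58th in size among the 11750 genes. Its level ran from 9.13 to 9.69 (median 9.56) in high and from 10.19 to 10.64 (median 10.43) in low WSS. The means were 9.50 ± 0.19 (SD, n = 14) and 10.42 ± 0.12 (SD, n = 14), no pools overlapped, and every pair differed by 0.64 to 1.25. The difference was 0.92 (SE 0.046, 95% interval 0.82 to 1.02, adjusted p = 3.41e-10), or 1.89-fold. Another probe set annotated to Rab1b, at a mean level of 8.21, had a difference of 0.070 (SE 0.039, adjusted p = 0.159), with 10 of 14 pairs higher. RefSeq also lists a pseudogene, Rab1b-ps1, on chromosome X, and which copy each probe set reads was not tested.

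Rab1a, the close relative of Rab1b with the same role, ran from 10.51 to 10.81 (median 10.75) in high and from 10.65 to 10.97 (median 10.80) in low WSS. Its difference of 0.086 just missed the threshold (adjusted p = 0.053), and its other 3 probe sets did not pass. Rab1b exceeded Rab1a in its difference by 0.833 (SE 0.0518, 14 of 14 pairs, adjusted p = 0.000565 in the exact permutation test). Rab2a and Rab2b, which act on the tethering of these vesicles at the Golgi, were higher by 0.23 and 0.12. These differed by 0.102 from each other (95% interval -0.0207 to 0.225, adjusted p = 0.133), so that a difference between them was not shown.

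Sec22b, the SNARE of ER to Golgi vesicles, ran from 8.60 to 9.27 (median 8.87) in high and from 9.02 to 9.37 (median 9.27) in low WSS, higher in all 14 pairs by 0.35 (SE 0.051, adjusted p = 3.16e-05). Golga7, an accessory protein of the enzyme that palmitoylates Ras, ran from 7.90 to 8.33 (median 8.18) and from 8.29 to 8.75 (median 8.49), a difference of 0.33 (SE 0.048, adjusted p = 3.12e-05). Of the coiled-coil golgins, Golga1 of the trans-Golgi was higher by 0.21. Golga2, the cis-Golgi golgin GM130, had a value of -0.11, lower in 13 of 14 pairs, that did not pass (adjusted p = 0.0871). The tether Uso1, which binds Golga2, had a value of 0.003. Gorasp1, the stacking protein that also binds Golga2, ran from 6.67 to 7.54 (median 7.13) in high and from 6.64 to 7.05 (median 6.93) in low WSS and was lower by 0.19 (SE 0.059, adjusted p = 0.0141). Gorasp2, with levels of 10.74 to 10.89 (median 10.81) and 10.53 to 11.04 (median 10.88), had a value of 0.056, and the difference of Gorasp1 lay below it by 0.247 (13 of 14 pairs, adjusted p = 0.00903 in the exact permutation test).

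Over 37 pairs of paralogs compared in this way, 25 had unequal differences at an adjusted p under 0.05. Of these 25, 8 gave the smallest p the test allows (0.000122), and 7 of the 8 involved Arf4, Arf6 or Rab1b. The remaining 12 pairs included Copz1 with Copz2, Sec31a with Sec31b and Ergic2 with Ergic3, with the difference at 0.0567, -0.0944 and 0.0501. The 37 pairs are not separate, since genes of the Arf and Sec24 families recur in many of them. How often unrelated genes differ in this way was not tested, and 41.7% of all genes tested were called higher or lower. Probe sets need not respond alike to the same change in mRNA, and the part of this in the paralog differences was not tested.

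The 45 members that did not pass had values from -0.141 to 0.17, and their 95% intervals reached from -0.292 to 0.324. Of them, 11 had an unadjusted p under 0.05, 6 on the higher and 5 on the lower side. Members nearest to 0 were Ergic3, Stt3b, Sec24c and Uso1, each with an interval within 0.09 of 0.

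The lean to higher levels was present in most but not all pairs. The median difference over the 83 members ran from -0.0734 in pair 7 to 0.176 in pair 5 (SD 0.0596 over the 14 pairs), and it was below 0 in pair 7 only. That of all 11750 genes ran from -0.113 to 0.0731. In pair 5, 65 members were higher in low WSS, and in pair 7 there were 30. The fat cell list differed by 3.24 in pair 7, where fat genes were higher in low WSS, and by -0.315 in pair 5, and over all pairs it ran from -2.13 to 3.78. Pairs 2 and 3, with fat differences of 3.78 and 3.04, had member medians of 0.0557 and 0.146. The part of fat content in these pair values was not tested. Rab1b, Srpra and Arf4 were higher in pair 7 as in every other pair. Pair differences of the members were loosely related, with a median correlation between genes of 0.13 over the 14 pairs, which share their arrays. The median was 0.33 among cargo receptors, 0.31 among oligosaccharyltransferase genes and -0.024 among the Arf genes taken with Arfgap2.

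**Figure D4:**
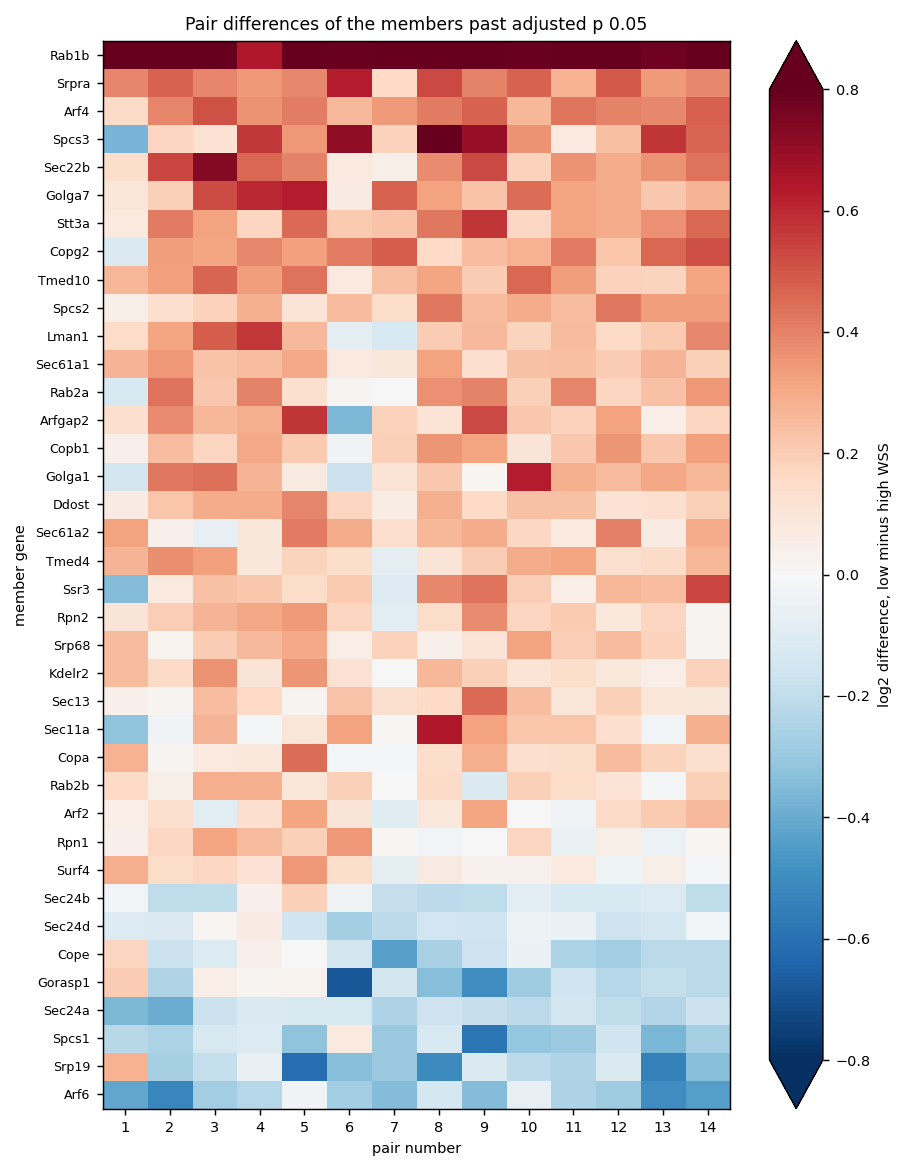
Log2 difference, low minus high WSS, of the 38 members past an adjusted p of 0.05 (rows, ordered by difference) in each of the 14 pairs (columns), with red for higher and blue for lower in low WSS and the colour scale ending at 0.8 in size. Rab1b is red throughout and Arf6 and Sec24a are blue throughout, while Spcs3 is blue in pair 1, Ssr3 in pairs 1 and 7 and Golga1 in pairs 1 and 6.

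Of 80 measured genes of the same route that the symbol rule left out, 27 were higher and 7 lower, where 19.7% and 22.0% of all genes were, and the median was 0.042. Among 31 genes of ER entry, glycan supply and membrane insertion, 15 were higher and 5 lower, or 7 and 4 with Tagln and Cnn1 as covariates. Examples are Dpm1, a subunit of dolichol-phosphate mannose synthase (0.30), Bcap31, an ER export and quality control protein (0.30), and Ganab, the alpha subunit of glucosidase II (0.23). The lower genes were Get1 (-0.26, adjusted p = 7.4e-06), which inserts tail-anchored proteins, Emc6, Naca, Tmco1 and Mogs. Among 50 genes of ER to Golgi transport, with Bcap31 counted in both lists, 13 were higher and 2 lower, or 8 and 2 with Tagln and Cnn1. In pairs 4 to 14 alone 5 of these were lower, and 4 were without pair 1, 3 or 5. The SNARE Bet1l (0.37, adjusted p = 3.27e-06) and the tether Cog5 (0.32, adjusted p = 2.69e-06) were higher, and the SNARE Gosr2 (-0.32) and the tether subunit Trappc1 (-0.29) were lower.

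Regulators of the route were higher and lower at the same time. Xbp1, a transcription factor that expands the ER, ran from 10.25 to 10.86 (median 10.71) in high and from 10.93 to 11.34 (median 11.15) in low WSS. Its pools did not overlap, and the difference was 0.46 (SE 0.040, adjusted p = 1.64e-07), which does not separate spliced from unspliced mRNA. Creb3l1, a membrane-bound factor that activates secretory and collagen genes, ran from 8.47 to 8.86 (median 8.67) in high and from 7.55 to 8.53 (median 8.06) in low WSS, lower in all 14 pairs by 0.64 (SE 0.065, adjusted p = 7.63e-07). Of the 9 regulators measured, 4 were higher (also Atf4 at 0.22, Mbtps1 at 0.14 and Atf6 at 0.09) and 3 were lower (also Creb3l2 at -0.14 and Ern1 at -0.14). Atf6, Ern1 and Creb3l2 lost the call in 12, 10 and 3 of 26 alternatives. With arrays centred on their medians 4 regulators were higher and 1 lower, and with Tagln and Cnn1 as covariates only Xbp1 and Creb3l1 of the 9 passed. The counts of regulators and of chaperones stand beside 19.7% higher and 22.0% lower among all genes tested. The chaperones and folding enzymes of the ER had 9 of 13 genes higher and 1 lower, with 5 higher after a further quantile normalization and 4 with Tagln and Cnn1. Ppib (0.40), a proline isomerase, the disulfide isomerases Pdia4 (0.39) and Pdia6 (0.32), and the lectin Calr (0.24) had the smallest p. Hspa5, the main ER chaperone, named after its value was seen, was at 0.12 (adjusted p = 0.00937) and did not pass without the pair block, after the further quantile normalization or with Tagln and Cnn1 as covariates. Dnajb9, a co-chaperone of Hspa5, was lower by 0.17.

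**Figure D5:**
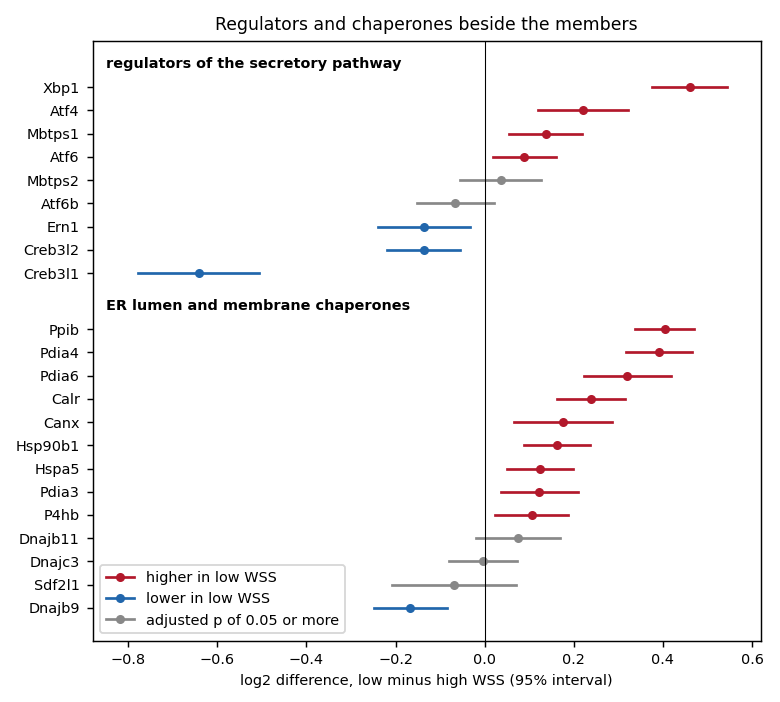
Log2 difference, low minus high WSS, with 95% intervals over 14 pairs, of 9 regulators of the secretory pathway and 13 ER chaperones and folding enzymes. Xbp1 at 0.46 and Creb3l1 at -0.64 are the extremes of the regulators, and 9 of the 13 chaperones lie to the right of 0 past the threshold.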

How the data were processed

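Pieces of high and low WSS wall from 5 male Wistar rats were pooled, and 28 pools (14 pairs, each of separate animals) were hybridized to Affymetrix Rat Gene 1.1 ST arrays. The deposited values are log2 levels per probe set that the authors made with RMA (background correction, quantile normalization, summary of probes) and the rn4 annotation. Array medians were 4.88 to 5.00 in high and 4.85 to 4.92 in low WSS pools, and the number of arrays limits the precision.

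Tests ran on the 13383 probe sets with a symbol and a mean level of at least 4 (11750 genes, each by its brightest probe set with 1 symbol). Low and high WSS were compared with limma 3.58.1 in R 4.3.3, with the pair as a block, after a test on simulated data. In that test, 20 of 50 probe sets changed by 0.2 were found, 39 of 50 changed by 0.3 and 48 of 50 changed by 0.6. It changed far fewer probe sets than passed in the real data. Paralogs were compared with exact two-sided sign-flip permutation tests over 14 pairs, adjusted over 37 comparisons (pandas 2.3.3, Python 3.11.15). The methods pair the pools, and the pairs were matched here by replicate number, since the titles do not say which pools share animals. Deviations from the region means correlated at -0.0119 to 0.481 for pools of the same number, averaging 0.282. The correlation exceeded 0.1 for 11 of 14. High and low WSS pools of different pairs correlated at -0.511 to 0.735, over 0.1 in 61 of 182, with a mean of -0.0173.

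Levels over pools are given for members past the Bonferroni threshold, members called lower and genes of unequal paralog pairs, and each pathway list is named by up to 4 genes of smallest p and those of the other direction. The members and lists were chosen with earlier results of these data known. Alternatives were the methods' paired t-test, no pair block, other variance estimation, filters, scalings and covariates, pairs 4 to 14 alone, each pair left out, and the mean over a gene's probe sets.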

Additional observations from a re-analysis of the deposited data

How the results depend on the processing

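The median difference of the members was above 0 under every alternative run, from 0.0479 after further quantile normalization to 0.102 with arrays centred on their medians, and from 0.0555 to 0.0746 when 1 pair was left out. The count of higher members (30) stayed within 1.5 times except with Tagln and Cnn1 as covariates, where it was 19, and ran from 26 to 33 with 1 pair left out. The count of lower members (8) was 5 with arrays centred, 13 after further quantile normalization and 4 with Tagln and Cnn1, and 7 to 10 with 1 pair left out. The 11 members past the Bonferroni threshold became 6 with probe sets without symbol kept, 6 with the fat cell mean as a covariate, 6 in pairs 4 to 14 alone and 3 with Tagln and Cnn1. Leaving out 1 pair, with fewer samples in the fit, gave 5 to 10, and leaving out any pair but 1 and 6 gave 7 or fewer. Without the pair as a block, 29 members were higher and 9 lower, and the methods' paired t-test gave 32 and 9. The cause was not tested for any of these changes.

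Under every alternative run, 18 higher members passed (Arf4, Copa, Copb1, Copg2, Ddost, Golga7, Kdelr2, Rab1b, Sec22b, Sec61a1, Sec61a2, Spcs2, Spcs3, Srp68, Srpra, Stt3a, Tmed10 and Tmed4), and so did Arf6, Sec24a and Spcs1 on the lower side. Arf2, Rpn1, Sec11a, Surf4 and Sec24b each lost the call in at least 11 of 26 alternatives. Unequal paralog pairs numbered 25 after further quantile normalization and 22 in pairs 4 to 14. Of the chaperones, P4hb went from 0.106 to -0.00226 after further quantile normalization. Low signal limits what can be seen in Sec31b and Tmed1, with mean levels of 4.67 and 5.01.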
